A study of Capra hircus with 8 samples.

Results

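Long non-coding RNAs (lncRNAs) were compared between goat (Capra hircus) embryos that arose from somatic cell nuclear transfer (SCNT) and from in vitro fertilisation (IVF), both at the 4-cell stage. An lncRNA was included when it was listed at 0.5 FPKM or more in at least 2 of the 4 libraries of that stage. FPKM stands for fragments per kilobase of transcript, scaled to the size of the library. This rule kept 1726 of the 6011 lncRNAs in the table: 394 of 1505 that carry a gene ID, called annotated here, and 1332 of 4506 that carry an lnc_ number, called numbered here. Each group had 2 libraries, IVF 4-cell replicates 1 and 2 and SCNT 4-cell replicates 1 and 2, made with Smart-seq2 from polyadenylated RNA of embryos that were lysed directly. Smart-seq2 amplifies full-length cDNA from very small amounts of RNA. The same table holds 2 IVF and 2 SCNT libraries of the 8-cell stage, which shared the estimate of spread and served to follow each lncRNA to the next division. The sources used here give neither the donor cells nor the breed nor the number of embryos in a library. The labels do not say that the 2 libraries of a group came from separate pools of embryos, so the p-values measure only the spread between these samples. Fewer embryo cells and less RNA per cell cannot be told apart in such libraries, and messenger RNAs at the 4-cell stage were not analysed here, so the labelled stage could not be checked against marker genes.

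An lncRNA is a long transcript with no known protein product; members of this class act on chromatin, on neighbouring genes, on RNA stability, or have no known role. An early embryo starts with transcripts stored in the egg, degrades them over the first divisions and then switches on its own genome, a step called embryonic genome activation that the series set out to follow. In a nuclear transfer embryo the egg cytoplasm is the same kind as in fertilisation, but the nucleus comes from a body cell, whose transcription pattern has to be reset. A 4-cell embryo can therefore hold lncRNAs stored by the egg as well as lncRNAs made by its own nuclei, and these libraries do not separate the 2 sources.

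The 4 libraries were alike in depth. Relative to IVF 4-cell replicate 1, the total behind the FPKM scaling was 1.07 in IVF 4-cell replicate 2, 1.08 in SCNT 4-cell replicate 1 and 1.09 in SCNT 4-cell replicate 2. The summed FPKM of annotated lncRNAs was 8592 and 12565 in IVF, with 9592 and 8698 in SCNT, and that of numbered lncRNAs was 9511 and 12879 in IVF and 9944 and 8847 in SCNT. IVF 4-cell replicate 2 thus had the highest sum in both classes.

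Both classes held a few very abundant lncRNAs and many low ones. The median of the mean level over the 4 libraries was 1.82 FPKM for the 394 annotated and 1.47 FPKM for the 1332 numbered lncRNAs. A mean of 10 FPKM or more was reached by 74 annotated and 141 numbered lncRNAs, and a mean of 100 FPKM or more by 7 and 8. In all 4 libraries, 257 annotated (65.2%) and 628 numbered (47.1%) were at 0.5 FPKM or more. Through the IVF pair alone, 16 annotated and 128 numbered entered, and through the SCNT pair alone 18 and 85; these had to be lower in the other group, so counts over the whole set are descriptions. Nearest the limit of 0.5 FPKM, the annotated gene25422 lay inside with 0.504 and 1.54 FPKM in IVF, against 0.0693 and 0.172 FPKM in SCNT, and gene13661 outside with 0.0762 and 0.499 FPKM in IVF, against 1.13 and 0.140 FPKM in SCNT. Among the numbered, lnc_3155 lay inside with 0.501 and 0 FPKM in IVF, against 0.564 and 0 FPKM in SCNT, and lnc_3770 outside with 0.452 and 0.624 FPKM in IVF, against 0.499 and 0.178 FPKM in SCNT.

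The first question was which lncRNAs the kind of embryo sets apart at 4 cells. Of the members, 6 numbered lncRNAs were higher in SCNT, and 4 numbered and 1 annotated lncRNA were lower, at an adjusted p under 0.05 in limma on log2(FPKM + 0.5), with Benjamini-Hochberg adjustment over 2611 tested lncRNAs. Of all 2611, the same 11 passed, or 0.421%, of which 0.230% were higher and 0.191% lower. Each of the 11 was listed at 0 in at least 1 library of its low group, and 9 at 0 in both. All 11 entered the set through the pair of libraries in which they were high, so the direction of their difference was fixed by the rule of entry. Listed at 0 in the 6 other libraries were 5 of them: lnc_2888, lnc_702, lnc_2645, lnc_4200 and lnc_1557. For these 5, the high pair alone met the filter of the fit and gave the spread. For lnc_3831, at 0.0170 FPKM or less in the 6 other libraries, the high pair alone met the filter as well. Both lnc_3747 and lnc_3114 met it only in the kind of embryo that held them, with every library of the other kind at 0. The p-values of all these lncRNAs are thus no independent support for a difference. The annotated one, lnc_47 and lnc_2121 also met the filter of the fit at 8 cells. Their direction at 4 cells was still fixed by the rule of entry, so it is no independent result either. At an unadjusted p under 0.05 stood 39 annotated lncRNAs, 15 higher and 24 lower, and 169 numbered, 74 higher and 95 lower, against 9.15% of all tested (3.83% higher, 5.32% lower). The median log2 difference, SCNT minus IVF, was 0.02 for annotated and −0.07 for numbered lncRNAs, and −0.02 for all tested. Without IVF 4-cell replicate 1 these medians were −0.24, −0.33 and −0.16.

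**Figure D1:**
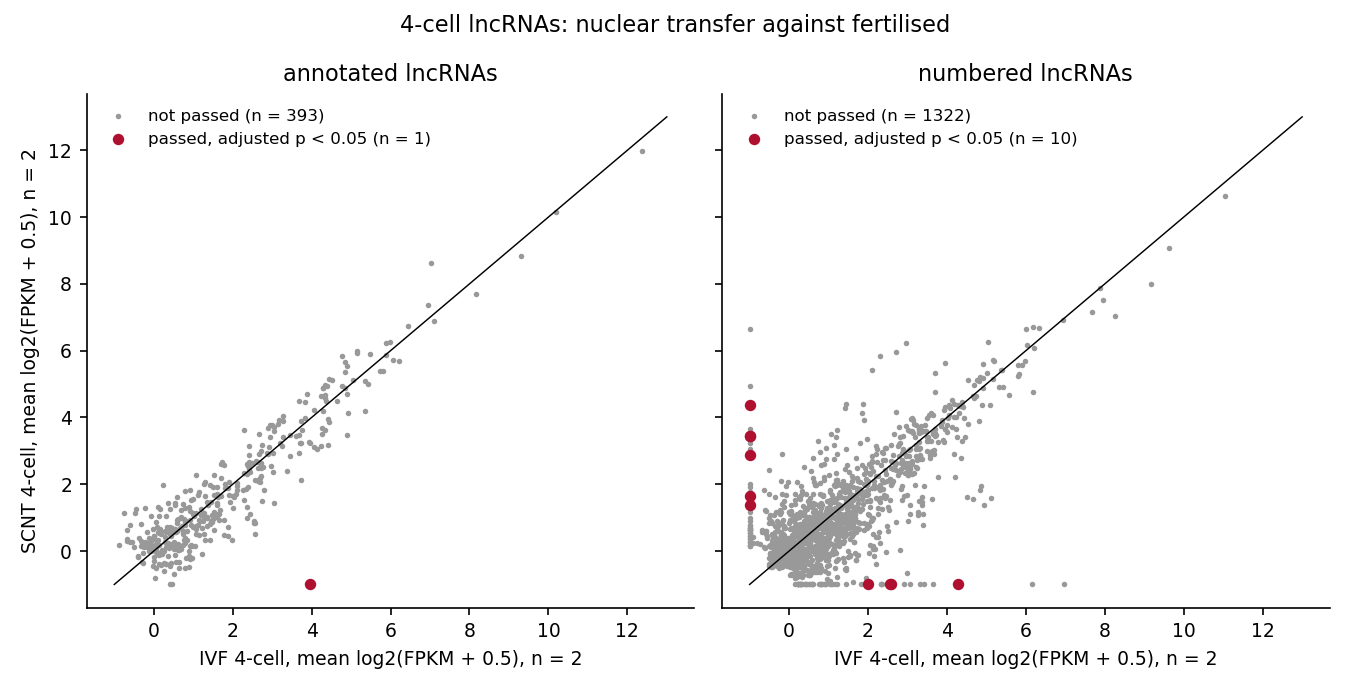
Mean log2(FPKM + 0.5) of the 2 SCNT 4-cell libraries against that of the 2 IVF 4-cell libraries, with annotated lncRNAs on the left (n = 394) and numbered on the right (n = 1332). Red points passed at an adjusted p under 0.05, 1 annotated and 10 numbered; a value of −1 is 0 FPKM, the line marks equal levels, and all red points lie on or next to the −1 edge.

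The annotated lncRNA that passed was LOC108634521 (gene27257), which is typed as lncRNA in the RefSeq gene table. No protein-coding neighbour was obtained for it there, and genes without a known chromosome were not searched, so a neighbour is not excluded. LOC108634521 was listed at 11.5 and 19.5 FPKM in the IVF 4-cell libraries and at 0 and 0.0184 FPKM in the SCNT 4-cell libraries. As the smallest whole read numbers that fit, these values are 574 and 1044 in IVF and 0 and 1 in SCNT. LOC108634521 entered the set through the IVF pair alone, so which group was higher was fixed by the rule of entry. The log2 difference was −4.93 ± 0.60 (SE, adjusted p = 0.0347 in limma), lower in 2 of 2 SCNT libraries; its size depends on the added 0.5 FPKM. At 8 cells the contrast was alike, with 11.0 and 16.5 FPKM in IVF, against 0 and 0.941 FPKM in SCNT (adjusted p = 0.0250 in limma). The 4-cell call did not hold with an added 0.1 FPKM (adjusted p = 0.0697), with no filter on low values (0.0891), with only the 4-cell groups fitted (0.0996), or without any 1 of the 4-cell libraries (0.107 to 0.230) or of the IVF 8-cell libraries (0.0719 and 0.0799).

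Of the lncRNAs that passed, 4 numbered ones were held by both IVF libraries and listed at 0 in both SCNT 4-cell libraries. The most abundant of these 4 was lnc_47, at 16.7 and 21.5 FPKM in IVF (537 and 735 reads as the smallest whole numbers) and 0 in both SCNT libraries (adjusted p = 0.00860 in limma). It was present in all 8-cell libraries, at 28.3 and 41.3 FPKM in IVF, against 14.9 and 15.6 FPKM in SCNT, so the 0 was seen in SCNT at 4 cells and not at 8. Next came lnc_2888 at 5.10 and 5.91 FPKM in IVF (0.0152) and lnc_702 at 2.46 and 4.93 FPKM in IVF (0.0375), both listed at 0 in the SCNT 4-cell libraries and in all 4 of the 8-cell libraries. By contrast, lnc_3747 was held by IVF embryos at both stages, at 4.69 and 6.25 FPKM at 4 cells (0.0347) and at 5.93 and 11.3 FPKM at 8 cells, and was listed at 0 in all 4 SCNT libraries. The next in order, lnc_1712, did not pass (0.0501), with 1.12 and 1.46 FPKM in IVF, against 0 in both SCNT libraries. The IVF 4-cell pair alone brought lnc_2888, lnc_702 and lnc_1712 into the fit, so their p-values are no independent support for a difference. Without IVF 4-cell replicate 2, none of the 4 passed (adjusted p = 0.0604 for lnc_47 and lnc_2888, 0.227 for lnc_3747 and 0.0857 for lnc_702). Without SCNT 4-cell replicate 1 or 2, lnc_2888 did not pass either (0.0738 and 0.0861), lnc_3747 came to 0.174 and 0.193, and lnc_702 to 0.185 and 0.203. Neither passed without 1 of the SCNT 8-cell libraries (0.0526 and 0.0527 for lnc_3747, 0.0622 and 0.0665 for lnc_702), and the call was also lost for lnc_3747 without IVF 4-cell replicate 1 (0.107) and for lnc_702 without either IVF 8-cell library (0.0719 and 0.0762). Both calls were also lost with an added 1 FPKM (0.0580 for lnc_3747 and 0.0578 for lnc_702) and with no filter on low values (0.0872 and 0.107).

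In the opposite direction, the 6 numbered lncRNAs that passed were present in SCNT and listed at or next to 0 in IVF. The highest of these 6, lnc_2121, was at 26.9 and 14.9 FPKM in SCNT (840 and 468 reads) and 0 in both IVF libraries (adjusted p = 0.0152 in limma). At 8 cells it was present in every library, at 22.2 and 41.5 FPKM in IVF, against 12.2 and 19.1 FPKM in SCNT. For lnc_3114, SCNT embryos stood apart at both stages, at 11.1 and 9.59 FPKM at 4 cells (0.0185) and 11.8 and 5.57 FPKM at 8 cells, against 0 in all 4 IVF libraries. The values of lnc_3831 were 7.04 and 6.59 FPKM in SCNT, against 0 and 0.00543 FPKM in IVF (0.0152), which came to 1307 and 1234 reads against 0 and 1 read. At 8 cells lnc_3831 was near 0 everywhere, with 0.0170 FPKM in IVF 8-cell replicate 1 as its only value. The other 3 were listed at 0 in all libraries but the SCNT 4-cell pair: lnc_2645 at 7.35 and 14.9 FPKM (0.0173), lnc_4200 at 3.22 and 2.14 FPKM (0.0307) and lnc_1557 at 2.23 and 1.98 FPKM (0.0269). That pair alone brought these 3 into the fit, so their p-values are no independent support for a difference. None of the 6 passed without IVF 4-cell replicate 1 (adjusted p = 0.0508 to 0.107) or without IVF 4-cell replicate 2 (0.0909 to 0.194). Without SCNT 4-cell replicate 1, lnc_2121, lnc_3114, lnc_4200 and lnc_1557 did not pass (0.0600 to 0.103), and without SCNT 4-cell replicate 2, lnc_2121, lnc_3114 and lnc_1557 did not (0.0527 to 0.114). With no filter on low values, lnc_4200 and lnc_1557 did not pass (0.107 for each).

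In all, 5 of the 11 were listed at 0 in the whole 8-cell stage, and 3 (LOC108634521, lnc_3747 and lnc_3114) also passed at 8 cells, in the same direction. At 8 cells, 3 annotated members were higher and 3 lower in SCNT, and 7 numbered members were higher and 29 lower. That is 42 of 1726 members, against 124 of 2611 tested lncRNAs (4.75%, with 1.49% higher and 3.26% lower). The 4-cell calls rest on the fit of all 8 libraries. With the 4-cell groups alone, limma called 0 annotated and 3 numbered lncRNAs, with 0 of the 11 among them and with 58 and 209 at an unadjusted p under 0.05. Without IVF 4-cell replicate 2 it called 0 in both classes, with 15 and 117 at an unadjusted p under 0.05.

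**Figure D2:**
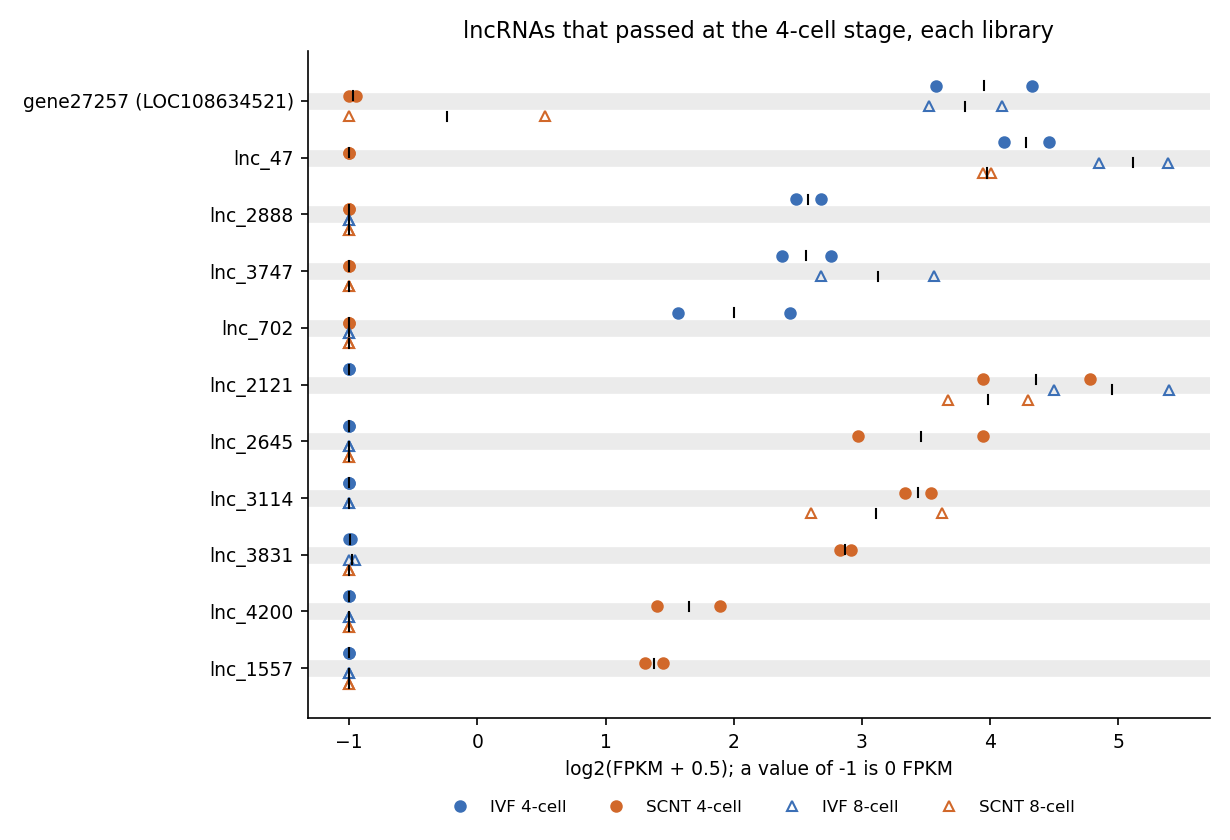
Level of the 11 lncRNAs that passed at the 4-cell stage in each library, as log2(FPKM + 0.5), where −1 is 0 FPKM. Filled circles are 4-cell and open triangles 8-cell libraries, blue is IVF and orange SCNT, and black ticks are group means of 2; the 4-cell groups lie apart in each, while lnc_47 and lnc_2121 are present in all 8-cell libraries.

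Presence and absence were not a property of the contrast between groups alone. Of the numbered members, 845 (63.4%) were above 0 in all 4 libraries, against 382 (97.0%) of the annotated. Between the 2 IVF libraries, 233 numbered lncRNAs (17.5%) were at 0.5 FPKM or more in 1 library and listed at 0 in the other, and between the 2 SCNT libraries 221 (16.6%). Between an IVF and a SCNT library the number was 273 to 284 (20.5% to 21.3%). The same held at 5 FPKM or more, with 41 and 38 numbered lncRNAs (3.08% and 2.85%) within groups and 44 to 52 (3.30% to 3.90%) between groups. Annotated lncRNAs showed 2 and 9 (0.508% and 2.28%) within groups at 0.5 FPKM and 5 to 8 (1.27% to 2.03%) between groups, and at 5 FPKM 0 within groups and at most 1 between them.

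**Figure D3:**
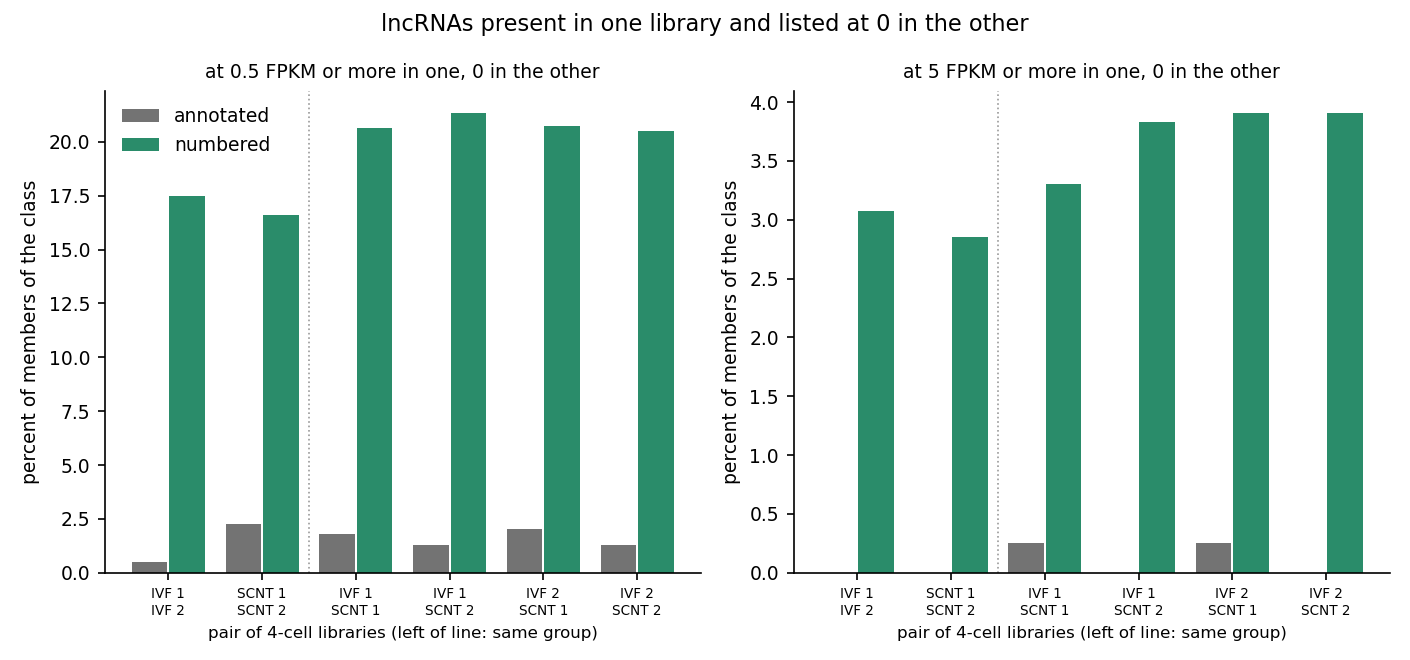
Percent of members at 0.5 FPKM or more (left) or 5 FPKM or more (right) in 1 library of a pair and listed at 0 in the other, for each pair of 4-cell libraries. Bars left of the dotted line are pairs of the same group; numbered lncRNAs stand at 16.6% and 17.5% there and at 20.5% to 21.3% in pairs of different groups, and annotated lncRNAs at 2.28% or less in all pairs.

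Numbered lncRNAs above 0 in exactly 2 libraries were spread over all pairings. The IVF pair accounted for 53 and the SCNT pair for 41, and the 4 pairings of an IVF with a SCNT library for 35, 32, 26 and 21. Of the 53 in the IVF pair, 4 passed, and of the 41 in the SCNT pair, 5 passed; their mean level in the group that held them ran from 0.602 to 125 FPKM and from 0.603 to 99.1 FPKM. Annotated lncRNAs gave 2 in the IVF pair (gene5709 and gene6597, neither past the threshold) and 0 in the SCNT pair. At 8 cells, 22 of the 41 were above 0 in at least 1 IVF library, and 34 of the 53 in at least 1 SCNT library, so over the 8-cell stage most of these were seen in the other kind of embryo as well.

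Of the lncRNAs of this kind, lnc_1968, lnc_520 and lnc_1641 passed when the 4-cell groups stood alone in the fit; they were named after their values were seen. In 4-cell embryos lnc_1968 was at 96.8 and 101 FPKM in SCNT, against 0 in IVF (adjusted p = 0.494 in limma with all 8 libraries, 0.00953 with the 4-cell groups alone). At 8 cells it was at 0 and 88.5 FPKM in IVF, against 76.5 and 0 FPKM in SCNT, and the SE of its log2 difference was 2.94 with all 8 libraries and 0.12 with the 4-cell groups alone. In the other direction, lnc_520 was at 120 and 130 FPKM in IVF, against 0 in SCNT (0.367, and 0.00953 alone), and at 8 cells at 101 FPKM in IVF replicate 1 and 0 in the other 3 libraries. Similarly lnc_1641, at 61.8 and 82.2 FPKM in IVF, against 0 in SCNT (0.367, and 0.0423 alone), was at 76.7 and 95.3 FPKM in IVF, against 0 and 88.3 FPKM in SCNT at 8 cells. With 1 library left out, lnc_520 passed without IVF 8-cell replicate 1 (0.00648) or 2 (0.00353) and lnc_1641 without SCNT 8-cell replicate 1 (0.00842) or 2 (0.0104). In each of the 3, at least 1 pair of 8-cell replicates had a library at 0 beside a library at a high level. Each of the 3 entered the set through its high 4-cell pair alone, so its direction was fixed by the rule of entry. The group at 0 adds no spread, so the p-values with the 4-cell groups alone are no independent support for a difference.

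Some pairs of consecutive numbers alternated between libraries. Of 58 such pairs in which both reached 5 FPKM in a 4-cell library, 9 (15.5%) had exactly 1 partner above 0 in each of the 4 libraries, and in 0 of the 9 did the switch follow the groups. These pairs were also picked after their values were seen. Of these, lnc_1395 was at 11.6 and 13.3 FPKM in replicate 1 of IVF and SCNT and at 0 in both replicates 2, where lnc_1396 was at 11.6 and 8.98 FPKM, and lnc_1396 was at 0 in both replicates 1. Likewise, lnc_2359 was at 36.0 FPKM in IVF replicate 1 and at 42.5 and 41.6 FPKM in the SCNT libraries. IVF replicate 2 listed it at 0 and was the only 4-cell library to hold lnc_2360, at 115 FPKM. The sources used here do not say whether the lnc_ numbers follow the order of the genome, and what makes such pairs alternate was not tested.

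Annotated lncRNAs varied by degree rather than by presence. Across the 394, the log2 values of the 2 IVF libraries correlated at r = 0.93 and those of the 2 SCNT libraries at r = 0.94, and IVF with SCNT libraries at 0.88 to 0.92; across the 1332 numbered, the values were 0.71 and 0.75 within groups and 0.61 to 0.65 between them. These correlations are across lncRNAs, which are not independent replicates. The 2 groups did not overlap for 86 annotated lncRNAs higher and 101 lower in SCNT (47.5% in all), and for 278 higher and 364 lower numbered lncRNAs (48.2%), against 16.9% higher and 22.5% lower (39.4% in all) of all tested. A log2 difference over 1 was seen for 20 annotated higher and 33 lower (13.5%), and for 148 higher and 199 lower numbered (26.1%), against 8.58% higher and 11.9% lower of all tested.

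None of the 8 most abundant annotated lncRNAs passed at 4 cells. LOC106502328 (gene7759), which lies next to BTNL9 in the RefSeq table, was listed at 4408 and 6300 FPKM in IVF, against 4346 and 3752 FPKM in SCNT, and alone made up 51.3% and 50.1% of the annotated FPKM in IVF, against 45.3% and 43.1% in SCNT. Its groups did not overlap, but by less than the spread within IVF (log2 difference −0.38 ± 0.24 SE, adjusted p = 0.750 in limma). LOC102181209 (gene7092) was at 766 and 1778 FPKM in IVF, against 1241 and 1058 FPKM in SCNT, with the SCNT values between the IVF values. LOC102190531 (gene13596), between EIF2S2, a subunit of a translation initiation factor, and ASIP, the agouti pigment signal, was at 471 and 858 FPKM in IVF, against 503 and 417 FPKM in SCNT, also overlapping.

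Of this top group, LOC108634143 (gene25292), which lies beside the zinc finger gene ZNF25, had the largest log2 difference. It was at 187 and 89.5 FPKM in IVF, against 400 and 386 FPKM in SCNT, and at 8 cells at 66.1 and 145 FPKM in IVF, against 395 and 932 FPKM in SCNT. Each SCNT library was thus above each IVF library at both stages. The 4-cell log2 difference was 1.60 ± 0.60 (SE) and did not pass (unadjusted p = 0.0353, adjusted p = 0.485 in limma). LOC108636124 (gene4804), between KRR1, a factor of ribosome assembly, and PHLDA1, was at 109 and 139 FPKM in IVF, against 161 and 167 FPKM in SCNT, also without passing (adjusted p = 0.794 in limma). The other 3 of the 8 most abundant, LOC102180967 (gene265, next to CD200), LOC108636636 (gene8868, next to PTPRD) and HNRNPF (gene25279), overlapped between groups.

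Below the threshold, the annotated lncRNAs of smallest p on the low side lay at moderate levels in IVF. LOC108636201 (gene6343), next to TRAM1L1, was at 4.16 and 6.72 FPKM in IVF, against 1.14 and 1.46 FPKM in SCNT (log2 difference −1.69 ± 0.39 SE, adjusted p = 0.269 in limma). LOC102188912 (gene23217) lies between SMAD2, which carries activin and TGF-beta signals to the nucleus, and ZBTB7C, and was at 3.95 and 7.03 FPKM in IVF, against 1.42 and 1.35 FPKM in SCNT (−1.62 ± 0.39 SE, 0.294). At 8 cells it was at 5.10 and 4.96 FPKM in IVF, against 4.33 and 4.91 FPKM in SCNT, so the groups lay closer there. LOC106501937 (gene3098), between PHTF1 and RSBN1, was at 36.8 and 44.1 FPKM in IVF, against 16.6 and 19.1 FPKM in SCNT (−1.16 ± 0.28 SE, 0.310). These were chosen among lncRNAs whose groups did not overlap and that did not pass, so neither trait is a result.

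On the high side, 4 of the 5 lncRNAs of smallest p without overlap lay under 0.5 FPKM in IVF. These 4 entered the set through the SCNT pair alone, so their direction and lack of overlap were fixed by the rule of entry. LOC108637502 (gene14470), next to the lysosomal vitamin B12 transporter gene LMBRD1, was at 0.125 and 0.117 FPKM in IVF, against 1.04 and 1.04 FPKM in SCNT (adjusted p = 0.266 in limma), which came to 1 and 1 against 9 and 9 reads as the smallest whole numbers. LOC108633456 (gene22691), between the chaperone gene HSP90AB1 and the nucleoside transporter gene SLC29A1, was at 0.331 and 0.133 FPKM in IVF, against 1.36 and 2.09 FPKM in SCNT (0.367). LOC106503990 (gene27978) was at 0.218 and 0.102 FPKM in IVF, against 1.52 and 0.968 FPKM in SCNT (0.367), and LOC102188899 (gene536), between KLHL6 and MCF2L2, at 0.0324 and 0.151 FPKM in IVF, against 0.751 and 3.46 FPKM in SCNT (0.427). LOC108636781 (gene9869) differed from these in level: between CTGF, a matrix-associated growth regulator, and MOXD1, it was at 28.0 and 28.6 FPKM in IVF, against 49.6 and 51.4 FPKM in SCNT. Its replicates lay close together in both groups, and its log2 difference, 0.82 ± 0.28 (SE), missed the threshold (0.424).

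**Figure D4:**
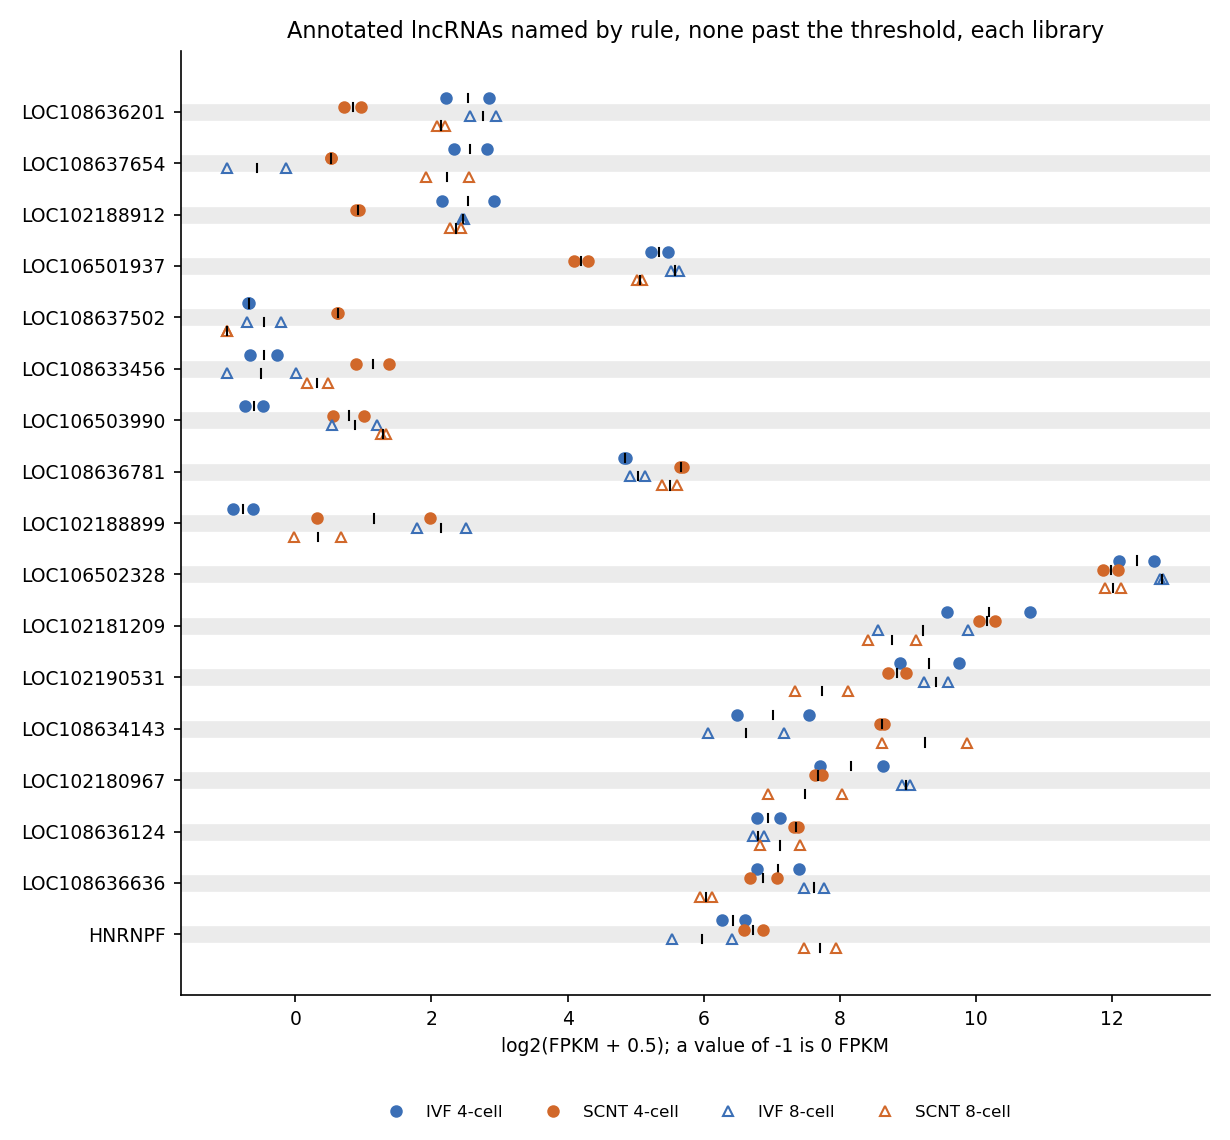
Level in each library of annotated lncRNAs that did not pass, as log2(FPKM + 0.5): of those whose groups do not overlap, the 4 lower and the 5 higher in SCNT of smallest p within their direction, then the 8 of highest mean FPKM. Filled circles are 4-cell and open triangles 8-cell libraries, blue is IVF and orange SCNT, and black ticks are group means of 2; LOC108634143 is higher in SCNT at both stages and LOC108637654 is lower at 4 cells and higher at 8.

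Annotated lncRNAs with a mean of 10 FPKM or more in the higher of the 2 groups were searched for groups without overlap and a log2 difference over 1. There were 10, with 3 higher and 7 lower in SCNT, against 5.78% higher and 8.31% lower of all tested at any level. This set was chosen after the values were seen, by a level that the difference itself helps to set: the mean over all 4 libraries was under 10 FPKM for 3 of them, LOC108634521, LOC108636074 and LOC102181601. At 8 cells, 9 of the 10 differed in the same direction, where 44.7% of all annotated members were higher and 55.3% lower in SCNT. The higher ones were LOC108634143, LOC108636842 (gene416), at 22.4 and 31.7 FPKM in IVF, against 52.9 and 59.9 FPKM in SCNT, and LOC108636074 (gene6137), at 7.51 and 2.44 FPKM in IVF, against 8.27 and 17.1 FPKM in SCNT. Of the lower ones, LOC102179377 (gene28506) was at 14.1 and 21.0 FPKM in IVF, against 6.87 and 8.83 FPKM in SCNT, with nearly the same levels at 8 cells (17.1 and 17.1 FPKM in IVF, 6.97 and 8.88 FPKM in SCNT). LOC102181601 (gene9833) was at 16.5 and 9.93 FPKM in IVF, against 4.56 and 3.24 FPKM in SCNT, and LOC108637161 (gene12118) at 15.4 and 28.6 FPKM in IVF, against 9.67 and 7.59 FPKM in SCNT. The exception at 8 cells was LOC102186795 (gene19409), at 21.4 and 39.4 FPKM in IVF, against 13.9 and 8.15 FPKM in SCNT at 4 cells, whose 8-cell groups overlapped. Of the 10, LOC108634521 alone passed at the 4-cell stage.

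Known lncRNAs could be looked for by name. Of a list of 34 well-studied lncRNAs, among them XIST, H19, MEG3, KCNQ1OT1, MALAT1 and NEAT1, and of any SNHG host gene, 0 are among the names of the annotated lncRNA table. Of the 394 annotated members, 380 carry a LOC symbol and 14 another symbol, most of them symbols of protein-coding genes, although RefSeq types all 394 as lncRNA. Of these 14, 0 passed in limma, 0 had an unadjusted p under 0.05, 3 were higher and 2 lower without overlap (against 16.9% and 22.5% of all tested), and the median log2 difference was 0.26 (range −0.60 to 0.83, lowest adjusted p 0.630). HNRNPF, the most abundant, was at 96.6 and 76.9 FPKM in IVF, against 116 and 95.8 FPKM in SCNT. Higher without overlap were LUZP1, at 10.8 and 4.74 FPKM in IVF, against 12.3 and 14.2 FPKM in SCNT, NFATC2 and TANGO2; lower were C3H1orf52 and RPL37A, the latter at 7.20 and 7.54 FPKM in IVF, against 5.71 and 5.05 FPKM in SCNT.

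None of the 8 most abundant numbered lncRNAs passed at 4 cells. The highest, lnc_3094, was at 1832 and 2399 FPKM in IVF, against 1751 and 1414 FPKM in SCNT (log2 difference −0.41 ± 0.29 SE, adjusted p = 0.786 in limma). The values of lnc_3602 were 755 and 815 FPKM in IVF, against 740 and 388 FPKM in SCNT, so its SCNT libraries differed more from each other than the groups did. Of the 8 most abundant, lnc_416 was widest apart relative to its error, with 447 and 732 FPKM in IVF, against 263 and 249 FPKM in SCNT (−1.16 ± 0.41 SE, adjusted p = 0.470). At 8 cells lnc_416 was at 1339 and 1016 FPKM in IVF, against 296 and 152 FPKM in SCNT. Likewise lnc_64 was at 302 and 313 FPKM in IVF, against 84.6 and 199 FPKM in SCNT (−1.24 ± 0.91 SE, 0.794). The other 4, lnc_3069, lnc_4249, lnc_4311 and lnc_3024, overlapped between groups.

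When only lncRNAs above 0 in all 4 of the 4-cell libraries entered the fit, limma called 0 of 382 annotated and 0 of 845 numbered members, with 42 and 73 at an unadjusted p under 0.05. This setting was added after the data were seen. It leaves out the 11 lncRNAs that passed, each listed at 0 in a 4-cell library, so the 0 says nothing about them. In the fit of all tested lncRNAs, the numbered lncRNA of smallest p among the 845 was lnc_2621, at 0.161 and 0.664 FPKM in IVF, against 5.09 and 9.45 FPKM in SCNT (log2 difference 3.09 ± 0.52 SE, adjusted p = 0.0999). It was also high in SCNT at 8 cells, at 26.5 and 14.5 FPKM against 0.0630 and 0.128 FPKM in IVF. After it came lnc_1078, at 0.285 and 0.266 FPKM in IVF, against 2.59 and 2.56 FPKM in SCNT (0.102), and lnc_4194, at 3.04 and 5.13 FPKM in IVF, against 0.668 and 0.204 FPKM in SCNT (0.157). In all 3 the groups lay apart with no 4-cell library at 0. At 8 cells, lnc_1078 and lnc_4194 were at 0 in both IVF libraries, which were part of the fit. The direction of lnc_1078 was fixed by the rule of entry, since it entered the set through the SCNT pair alone.

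The second comparison asked whether the difference between SCNT and IVF changed from the 4-cell to the 8-cell stage. The 2 differences share no library. Across lncRNAs they correlated at r = 0.28 (Spearman's rho 0.28) over 394 annotated and r = 0.17 (rho 0.15) over 1332 numbered lncRNAs, a description only, since lncRNAs of a library share its depth and handling. Of the 20 annotated lncRNAs that were higher in SCNT at 4 cells with a log2 difference over 1 and no overlap, 12 were also higher at 8 cells, and of the 31 lower ones 24 were also lower; of all annotated members, 44.7% were higher and 55.3% lower at 8 cells. Of 119 such numbered lncRNAs that were higher at 4 cells, 40 were also higher at 8, and of 159 that were lower, 98 were also lower, while 33.3% of all numbered members were higher and 63.4% lower at 8 cells. Of all tested lncRNAs, 5.78% met these 2 criteria as higher and 8.31% as lower at 4 cells.

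**Figure D5:**
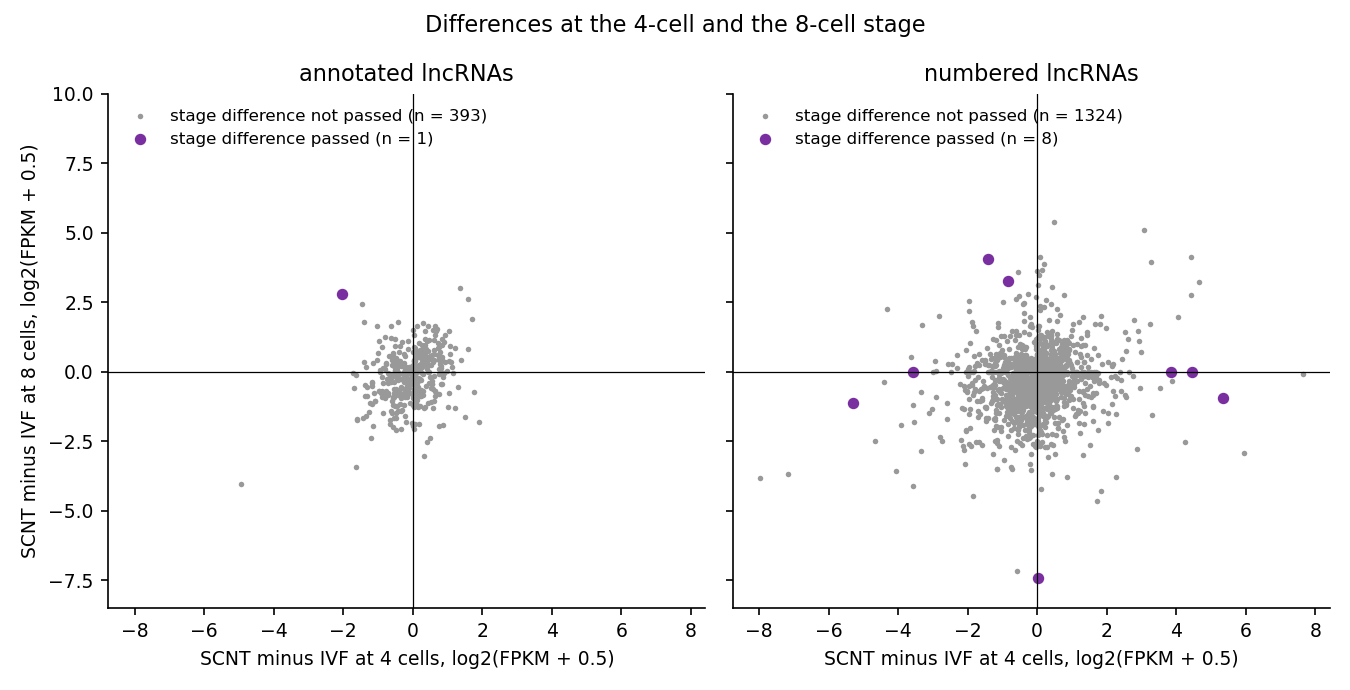
SCNT minus IVF difference in log2(FPKM + 0.5) at 8 cells against that at 4 cells, annotated lncRNAs on the left (n = 394) and numbered on the right (n = 1332). Purple points are the 1 annotated and 8 numbered lncRNAs whose 2 differences differed at an adjusted p under 0.05. Of these, lnc_2888, lnc_2645 and lnc_3831 lie at or near 0 on the vertical axis and lnc_750 near 0 on the horizontal axis.

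The difference itself changed for 9 members, 1 annotated and 8 numbered (adjusted p under 0.05 in limma), against 0.574% of all tested. Among the numbered, lnc_2888, lnc_2645 and lnc_3831 were at or near 0 at 8 cells and entered the fit through their high 4-cell pair alone. Their p-values are no independent support for a change, nor is that of lnc_1896, which met the filter only in the groups that held it. The annotated one, LOC108637654 (gene14881), lies between EIF3M, a subunit of a translation initiation factor, and WT1, a transcription factor of kidney and gonad. It was at 6.52 and 4.51 FPKM in IVF, against 0.943 and 0.935 FPKM in SCNT at 4 cells, and at 0.413 and 0 FPKM in IVF, against 3.28 and 5.34 FPKM in SCNT at 8 cells. The order of the groups was thus opposite at the 2 stages, with no overlap at either. The difference at 8 cells minus that at 4 cells was 4.84 ± 0.67 on the log2 scale (SE, adjusted p = 0.0486), and the 4-cell difference alone did not pass (−2.04 ± 0.47 SE, adjusted p = 0.269). Among members, 0 changes between stages passed in limma without IVF 4-cell replicate 2, SCNT 4-cell replicate 1 or SCNT 4-cell replicate 2, with 201, 132 and 153 at an unadjusted p under 0.05.

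The series is named after lnc_3712, which was listed at 0 in all 4 of the 4-cell libraries and is therefore not among the 1726.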

How the data were processed

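The authors deposited FPKM values per lncRNA for IVF and SCNT goat embryos at 4 and 8 cells, 2 libraries in each of 4 groups. Per the submitters' processing notes, HISAT2 2.2.1, HTSeq and fastp were used, with no order given; the sources used here state no genome build, annotation or assembly method for the numbered lncRNAs. Groups follow the sample titles. The members and gene lists were chosen with earlier results of these data known.

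LncRNAs at 0.5 FPKM or more in at least 2 of 8 libraries (2611) were fitted in R 4.3.3 by limma 3.58.1 (lmFit and eBayes, variance trend on) on log2(FPKM + 0.5), all 4 groups in 1 fit, with 4 residual and 2.34 prior degrees of freedom. All tests are two-sided, with Benjamini-Hochberg adjustment over all 2611, and 0.05 was the threshold. The procedure was tested on simulated data. The simulation did not copy the switching of real lncRNAs between 0 and high values, so it does not check the calls that rest on a 0. Log2 differences are taken after the added 0.5 FPKM and understate the change of low lncRNAs; a group at 0 adds no spread, and no fold is given against it. FPKM holds no counts; relative depth came from the steps between low values, and smallest whole read numbers matched within 1e-05 read for 1717 of 1726 members (99.5%). Real read numbers may be multiples of these, and PCR copies are not told apart.

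Annotated IDs were named by 8-cell values identical to a named entry (1291 of 1505, all 394 members). Neighbours are the adjoining protein-coding genes in the RefSeq gene table (goat assembly ARS1.2), whose build may differ from the files'. The lncRNAs named are those that passed (up to 10 per class and direction), non-overlapping ones of smallest p up to 5 per class and direction, the 8 most abundant per class, those whose difference changed between stages, and the listed symbols; others are said to be chosen afterwards. Alternatives changed the added value, the filter, the scaling, the groups in the fit, the variance trend, the replicate block and the libraries.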

Additional observations from a re-analysis of the deposited data

Results flagged for a closer look

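For 9 lncRNAs the SCNT minus IVF difference itself differed between the 4-cell and the 8-cell stage (limma, adjusted p under 0.05). Each value below is the 8-cell difference minus the 4-cell difference in log2(FPKM + 0.5); where a group is at 0 it depends on the added 0.5 FPKM and is not a fold. The count was 0 without any 1 of IVF 4-cell replicate 2, SCNT 4-cell replicate 1 or SCNT 4-cell replicate 2, with 201, 132 and 153 at an unadjusted p under 0.05 in limma.

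Groups that matched at 4 cells and parted at 8 were seen for lnc_750, with a change of −7.44 (adjusted p = 0.00653): it was at 37.4 and 45.5 FPKM in IVF, against 44.4 and 39.7 FPKM in SCNT at 4 cells, and at 67.8 and 106 FPKM in IVF, against 0 in SCNT at 8 cells. Its next number, lnc_751, was at 106 and 68.7 FPKM in the SCNT 8-cell libraries, where lnc_750 was at 0, and at 0 in all other libraries, which held lnc_750. The numbers thus traded places by group at 8 cells, and what makes them do so was not tested. Groups that parted at 4 cells and were both present at 8 were seen for lnc_2121, with a change of −6.32 (0.0361), and lnc_47, with 4.14 (0.0409). Listed at or near 0 in the whole 8-cell stage, so that the difference was seen at 4 cells alone, were lnc_2645 with −4.46 (0.0486), lnc_3831 with −3.89 (0.0409) and lnc_2888 with 3.58 (0.0409). These entered the fit through their high 4-cell pair alone, and the change is close to their 4-cell difference with the sign reversed. Their p-values are thus no independent support for a change between stages.

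For lnc_1896 the groups changed sides, from 0.847 and 0.793 FPKM in IVF, against 0 in SCNT to 0 in IVF and 6.08 and 10.1 FPKM in SCNT, a change of 5.46 (0.0313). LOC108637654 (gene14881) changed sides as well, by 4.84 (0.0486). Unlike these, lnc_4139 was held by both groups at 4 cells, at 6.78 and 10.5 FPKM in IVF, against 4.56 and 4.48 FPKM in SCNT, and by SCNT alone at 8 cells, at 4.15 and 4.37 FPKM, a change of 4.08 (0.0409). The IVF 4-cell pair alone brought lnc_1896 into the set, so its direction at 4 cells was fixed by the rule of entry. That 4-cell difference did not pass (adjusted p = 0.367 in limma). As lnc_1896 met the filter of the fit only in the groups that held it, its p-value is no independent support for a change.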

How the results depend on the processing

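The 10 numbered calls came to 6 with no filter on low values, 3 with the 4-cell groups alone and 0 (73 at an unadjusted p under 0.05 in limma) among lncRNAs above 0 in all 4 of the 4-cell libraries, and ranged from 0 (without IVF 4-cell replicate 2) to 26 (without SCNT 8-cell replicate 2) when 1 library was left out. The 1 annotated call came to 0 with an added 0.1 FPKM, with no filter, with the 4-cell groups alone and above 0 in all 4, and ranged from 0 to 1 when 1 library was left out. The 9 changes between stages came to 3 with an added 1 FPKM, 2 with no filter, 14 with equal summed FPKM, 15 with quantile normalization and 3 above 0 in all 4, and ranged from 0 to 34 when 1 library was left out. The cause was not tested, except that the setting above 0 in all 4 leaves out the 11 lncRNAs that passed. Of 20 alternatives, lnc_47 passed in 18, lnc_2645 and lnc_3831 in 17, lnc_2888 in 16, lnc_2121 and lnc_3114 in 15, lnc_4200 in 14, lnc_1557 in 13, LOC108634521 in 11, lnc_3747 in 10 and lnc_702 in 9.

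The median log2 difference of annotated lncRNAs was 0.17 with equal summed FPKM and ranged from −0.24 to 0.064 when 1 library was left out; that of numbered lncRNAs ranged from −0.33 to 0.052. LncRNAs held by both libraries of 1 group and at 0 in both of the other numbered 96 at 0.5 FPKM and 47 at 1 FPKM. Of the lncRNAs named, 5 with a small difference changed sign. With median centring, gene7092 came to 0.051, lnc_3069 to 0.067 and lnc_3024 to 0.057. With equal summed FPKM, gene7092 came to 0.19, gene8868 to 0.0011, lnc_3069 to 0.20 and lnc_3024 to 0.19, and with quantile normalization lnc_3069 came to 0.29 and lnc_3024 to 0.11. When 1 library was left out, gene7092 ranged from −0.63 to 0.58, gene8868 from −0.52 to 0.092, lnc_3069 from −0.55 to 0.53, lnc_3024 from −0.33 to 0.29 and lnc_750 from −0.12 to 0.17.

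With the replicate number as a block, 6 numbered lncRNAs and 1 change between stages passed, and the annotated call held; lnc_3747, lnc_4200 and lnc_1557 (adjusted p = 0.0824 each) and lnc_702 (0.0955) did not pass. The labels do not say that a number pairs libraries, and the replicate differences of the IVF and SCNT 4-cell pairs correlated at 0.016 over 2611 lncRNAs.

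With 2 libraries a group and calls that rest on values of 0, the depth of a library limits what a 0 means: a lncRNA listed at 0 is not shown to be absent. The 4-cell libraries were alike in depth. Some values of 0 faced many reads in the other group, such as 840 and 468 in SCNT for lnc_2121, and what gives such a 0 was not tested.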
